A study of Mus musculus with 6 samples.

Results

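Myostatin and the activins are secreted ligands of the TGF-beta superfamily that restrain muscle growth, and follistatin is the protein that binds and neutralizes them. The 10 genes described here encode the ligands myostatin (*Mstn*), GDF11 (*Gdf11*) and the activin beta subunits (*Inhba*, *Inhbb*), the follistatin family (*Fst*, *Fstl3*, *Fstl1*) and activin receptors (*Acvr2a*, *Acvr2b*, *Acvr1b*). They were taken by gene symbol from the 54525 gene rows of the count tables, and all 10 were listed. RNA-seq was performed on the wild-type (WT) mouse myoblast line C2C12, with 3 samples of myoblasts (D0) and 3 samples of myotubes after 5 days of differentiation (D5). The cells received no treatment other than the change from growth medium with fetal bovine serum to medium with a lower percentage of horse serum. C2C12 is 1 established line, so its samples share a genotype. Whether the samples of a group came from separate cultures is not stated, and p-values here measure only the spread between these samples, which may be technical. A fall in bulk RNA cannot tell fewer cells of a kind from less RNA per cell.

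A mature ligand of this family is a dimer cut from a longer precursor. It binds a type II receptor (ACVR2A or ACVR2B), which recruits a type I receptor such as ACVR1B (ALK4) or TGFBR1 (ALK5), and the complex phosphorylates SMAD2 and SMAD3. Follistatin and FSTL3 wrap around the ligand and block its receptor sites, while FSTL1 shares a follistatin domain but is a more distant relative. In adult animals myostatin is made mainly by skeletal muscle, and loss of myostatin or excess of follistatin enlarges muscle. Activin A is a dimer of the *Inhba* product and activin B a dimer of the *Inhbb* product.

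The D0 libraries were the deeper ones, with 36555048 to 40895840 gene counts, against 25449759 to 25811300 in the D5 libraries. Levels are TMM-scaled CPM, that is, counts per 1000000 counts. A filter on low counts left 16290 genes, which edgeR tested. Markers went with the labels, since 6 of 6 myotube genes rose and 3 of 3 myoblast and 4 of 4 proliferation genes fell, the last from a summed 1548 to 1565 CPM at D0 to 47.4 to 55.8 CPM at D5. Adipocyte and leukocyte markers had at most 2 counts in any library, and the 4 osteoblast markers at most 22, with *Ibsp* at 0 and *Dmp1* higher at D5 (2, 4 and 4 counts at D0, 13, 22 and 12 at D5). Of 4 endothelial markers *Kdr* and *Tek* fell, *Pecam1* and *Cdh5* had at most 7 counts, and the sum was 3.31 to 3.59 CPM at D0 and 0.518 to 0.884 CPM at D5, and the part of both lists in the results below was not tested. The share of ERCC spike-ins ran from 0.726% to 0.859% at D0 and from 0.720% to 2.09% at D5, so that scaling to them was uneven among the D5 libraries. Unscaled counts and counts scaled to the spike-ins moved the median log2 fold change of all genes to -0.68 and -0.58, from 0.0022 after TMM.

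The promoters of 2 members are shown because these genes were the extremes among the ligands, *Mstn* being at or under the limit of detection in every library and *Inhba* showing the largest fall of the 10 genes. The windows are those of RefSeq on GRCm38.p6, from 250 bases before to 50 bases after the start of the gene, and both lie on the plus strand. Capitals mark the E-box letters CANNTG, the kind of sequence that MYOD1 and related factors bind.

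*Mstn*, chr1:53061390-53061689: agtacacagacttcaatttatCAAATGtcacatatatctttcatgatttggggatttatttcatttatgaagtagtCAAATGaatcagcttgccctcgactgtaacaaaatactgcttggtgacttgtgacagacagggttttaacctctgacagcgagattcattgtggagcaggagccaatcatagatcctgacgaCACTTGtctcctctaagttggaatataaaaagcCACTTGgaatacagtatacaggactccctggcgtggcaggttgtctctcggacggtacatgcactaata
*Inhba*, chr13:16011601-16011900: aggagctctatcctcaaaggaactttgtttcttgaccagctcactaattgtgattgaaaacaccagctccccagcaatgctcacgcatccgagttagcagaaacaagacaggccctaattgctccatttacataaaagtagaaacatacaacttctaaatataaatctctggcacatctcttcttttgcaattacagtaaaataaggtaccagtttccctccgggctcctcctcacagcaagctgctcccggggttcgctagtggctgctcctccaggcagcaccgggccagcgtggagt

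The *Mstn* window held 4 E-box matches, whose first letters lie 229, 174, 52 and 19 bases before the start, and the *Inhba* window held 0. Of 32851 windows of the same length, 72.3% held at least 1 match and 17.6% at least 3. The sequence CANNTG reads the same on both strands, and matches were counted once. CAGAC, the Smad box, was also searched on both strands and occurred in 49.6% of all windows, and a match of one may share an end letter with a match of the other. Of the members, 9 have a RefSeq window, of which 4 held CANNTG (*Mstn*, *Gdf11*, *Fstl3*, *Acvr1b*) and 4 held CAGAC (*Mstn*, *Fstl3*, *Acvr2a*, *Acvr2b*). A match is a run of letters and says nothing of occupancy.

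Of the 10 genes, 9 passed the filter on low counts, 5 of them rose and 4 fell past the threshold of 0.05 on the adjusted p in the quasi-likelihood test of edgeR. Over all genes tested 42.2% were called higher and 40.8% lower, so that 82.9% of all genes were called and a call by itself does not set these genes apart. Their median log2 fold change was 0.15, against 0.0022 over all genes tested. What the genes differed in was size, from a fall to 4.19% of the D0 level (*Inhba*) to a 29.8-fold rise (*Fst*). An absolute log2 fold change under 1 was seen in 64.7% of all genes tested. Among the tested members *Gdf11* (0.47), *Fstl3* (0.15) and *Acvr1b* (0.22) were under 1, and *Acvr2a* was just over it at 1.03. In CPM the 3 D5 libraries lay all above the 3 D0 libraries for 5 of the tested members and all below for 4, against 42.2% and 41.1% of all genes tested.

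**Figure D1:**
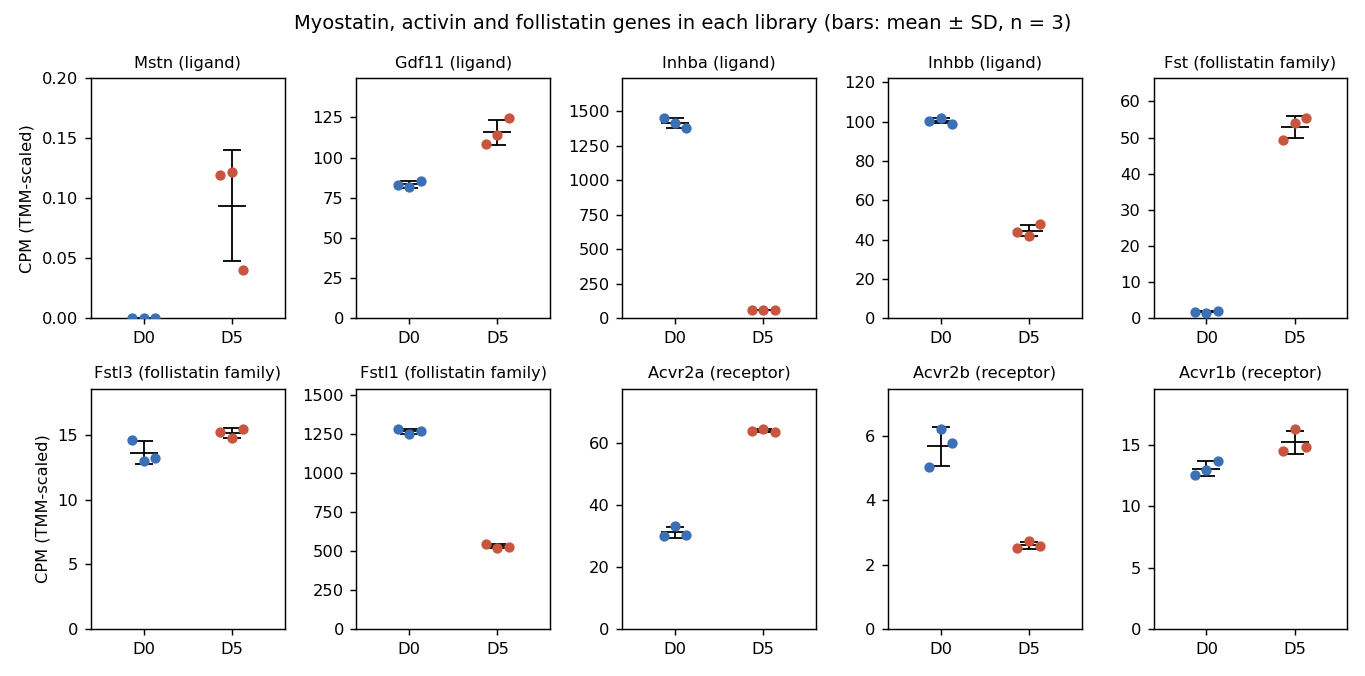
CPM of each of the 10 genes (vertical axis, from 0, a different range in each panel) in the 3 D0 and 3 D5 libraries (points), with bars for the mean ± SD. *Inhba* fell from at least 1377 to under 60 CPM, *Fst* rose from under 2 to over 49 CPM, and *Mstn* stayed under 0.122 CPM in every library.

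Among the ligands, *Mstn* was not detected at this depth, both activin beta subunits fell, and *Gdf11* was modestly higher after TMM. *Mstn* (ENSMUSG00000026100.6), which lies at 53061640 to 53068079 on chromosome 1 of GRCm38, got 0, 0 and 0 counts at D0. The D5 libraries held 3, 3 and 1. A library with 3 counts or fewer of a gene was taken as not detecting it, so *Mstn* was at or under the limit in all 6 libraries and no fold is given. It did not pass the filter on low counts. With no such filter, edgeR's test gave an adjusted p of 0.00741 for these same few counts, which is the only setting that tested the gene. The differentiation marker *Myog*, by comparison, had from 12737 to 12920 counts in the same D5 libraries.

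*Inhba* encodes the beta A subunit, which forms activin A. It lies on chromosome 13 from 16011851 to 16031621 and had 1448, 1416 and 1377 CPM in the D0 libraries against 58.9, 59.8 and 58.8 CPM in the D5 libraries. Every D5 library was far below every D0 library. The log2 fold change was -4.58, with a standard error of 0.039 and an adjusted p of 1.4e-37 by edgeR, a 23.9-fold fall. Only 2.03% of all genes tested fell past a log2 fold change of -4, and *Inhba* ranked 221 from the largest fall. By CPM it ranked 42 of the genes tested at D0 and 3754 at D5.

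*Inhbb*, on chromosome 1 from 119415465 to 119422248, encodes the beta B subunit of activin B. Its D0 libraries had 100.4, 101.6 and 99.0 CPM and its D5 libraries 43.8, 42.0 and 47.7 CPM, again with no overlap. The log2 fold change was -1.17, with a standard error of 0.042 and an adjusted p of 2.2e-21 by edgeR, a smaller fall than that of *Inhba*.

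*Gdf11*, the closest relative of myostatin, lies on chromosome 10 from 128882295 to 128891718. It had 82.8, 81.7 and 85.5 CPM at D0 and 108.7, 114.0 and 124.4 CPM at D5. All D5 libraries lay above all D0 libraries after TMM, with a log2 fold change of 0.47 (by edgeR a standard error of 0.041 and an adjusted p of 6.0e-12), but the value was -0.21 in unscaled counts and -0.11 with spike-in scaling. Relative to the median of all genes it was 0.47 with TMM, without scaling and with spike-in scaling. A change of scaling shifts all genes nearly alike, so this likeness was set in advance and is no test. Its adjusted p ran from 8.4e-26 to 0.89 over the 14 alternatives.

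With the levels divided by exonic length (TPM, transcripts per 1000000 transcripts, computed from the counts), which allows genes to be compared, the make-up of the ligand transcripts changed between D0 and D5. At D0 *Inhba* made up 83.8%, 83.4% and 83.0% of the summed TPM of the 4 ligand genes in the 3 libraries. At D5 its share was 19.9%, 19.8% and 18.0%. The largest share at D5 was that of *Gdf11*, with 57.8%, 59.3% and 60.0%, against 7.53%, 7.57% and 8.10% at D0. *Inhbb* took from 8.72% to 8.99% at D0 and from 20.8% to 22.2% at D5. A larger share is not a rise of the same size. From D0 to D5 the mean TPM went from 764.7 to 28.7 for *Inhba*, from 81.5 to 32.4 for *Inhbb* and from 70.9 to 88.3 for *Gdf11*. The summed TPM of the ligands was 910.8 to 920.8 at D0 and 144.3 to 157.3 at D5. These shares are ratios within a library and do not depend on the scaling between libraries.

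**Figure D2:**
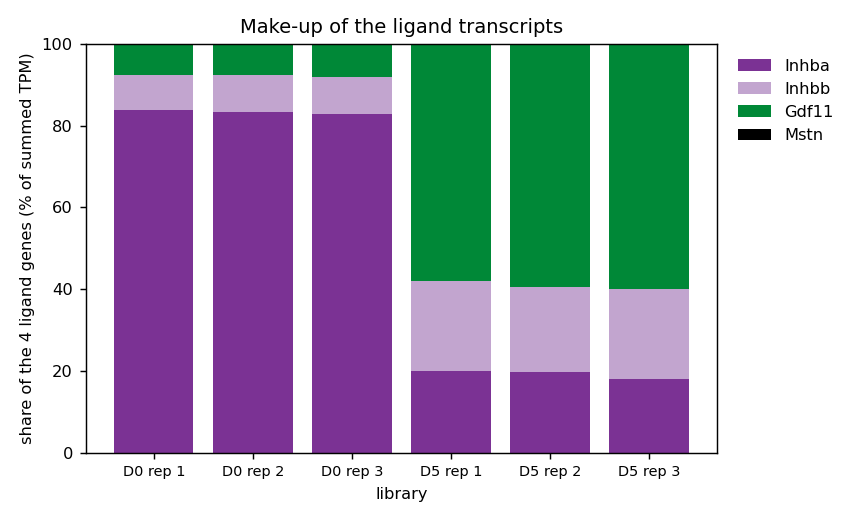
Share of each ligand gene in the summed TPM of *Inhba*, *Inhbb*, *Gdf11* and *Mstn* (percent, vertical axis) in each of the 6 libraries (bars). *Inhba* makes up 83.0% to 83.8% of the D0 bars, *Gdf11* 57.8% to 60.0% of the D5 bars, and *Mstn* is at most 0.0953%.

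The ratio of *Inhba* to *Inhbb* was 9.61, 9.28 and 9.26 in TPM in the D0 libraries and 0.895, 0.949 and 0.821 in the D5 libraries. Thus *Inhba* exceeded *Inhbb* in all D0 libraries and was under it in all D5 libraries. The log2 ratio differed by -3.40 between the groups, a 10.6-fold change, with an SD of 0.030 among D0 and 0.11 among D5 libraries. The two-sided exact permutation test gave p = 0.1 (0.1 after adjustment over the 2 pairs tested), the smallest p that 3 libraries against 3 can give. Ratios to *Mstn* were not computed, because its counts were at or under the limit.

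The follistatin family did not move together. *Fst* rose strongly, *Fstl1* fell, and *Fstl3* stayed near its D0 level. *Fst* encodes follistatin, which binds activins and myostatin. It lies on the minus strand of chromosome 13 from 114452290 to 114458951, and its libraries had 1.82, 1.57 and 1.94 CPM at D0 (68, 66 and 78 counts) and 49.3, 54.1 and 55.3 CPM at D5 (1239, 1334 and 1376 counts). Each D5 library was higher than each D0 library by a wide margin. The log2 fold change was 4.90, with a standard error of 0.078 and an adjusted p of 1.2e-30 by edgeR. A rise past a log2 fold change of 4 was seen in 5.43% of all genes tested, and *Fst* ranked 654 from the largest rise.

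The genes whose pattern over the 6 libraries was most like that of *Fst* were *Col25a1*, *Bcam* and *Crabp2*, with root mean square differences of 0.082, 0.090 and 0.092 in mean-centred log2(CPM + 0.5). With 2 groups of 3 libraries such likeness rests mainly on the size of the rise in that measure. By edgeR *Crabp2* had a log2 fold change of 4.90, like *Fst*, but *Col25a1* had 6.97 and *Bcam* 5.86. The pseudocount of 0.5 reduces the difference of genes that are low at D0, such as *Col25a1* with 0.109 CPM and *Bcam* with 0.3865 CPM.

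*Fstl1* encodes a secreted glycoprotein with a follistatin domain. It was the most abundant of the 10 genes per length in both groups, with a mean TPM of 890 at D0 and 334.5 at D5. In CPM it had 1279, 1250 and 1265 at D0, where *Inhba* was higher, and 544.6, 520.2 and 524.8 at D5. The groups did not overlap, and the log2 fold change was -1.25, with a standard error of 0.032 and an adjusted p of 3.7e-25 by edgeR. The gene lies on chromosome 16 from 37776873 to 37836514.

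*Fstl3* (chromosome 10 from 79777272 to 79782630) encodes a follistatin relative that also binds activin and myostatin. Its libraries had 14.66, 13.03 and 13.26 CPM at D0 and 15.25, 14.77 and 15.48 CPM at D5, so that the lowest D5 and the highest D0 library nearly touched. The log2 fold change was 0.15, with a standard error of 0.066 and an adjusted p of 0.034 by edgeR, but it was -0.53 in unscaled counts and -0.43 with spike-in scaling. The call did not survive the removal of D0 replicate 2 or 3 or of D5 replicate 1 or 3. It was also lost with DESeq2, with upper-quartile factors, with total counts and with no filter on low counts. The adjusted p over the 14 alternatives ran from 4.9e-09 in unscaled counts to 0.55 with spike-in scaling. In both of these the log2 fold change was negative. In TPM the groups had 19.3 ± 0.975 and 19.2 ± 0.713 (SD, n = 3 per group), a difference under the spread between replicates. Of the exonic length of *Fstl3*, 47.3% is shared with *Prss57* on the opposite strand, which had at most 4 counts in any library. The strand setting of the counting is not stated, so the count of *Fstl3* is uncertain.

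At D0 *Inhba* transcripts outnumbered *Fst* transcripts in TPM by 510.6-fold to 647.6-fold, whereas at D5 the *Fst* to *Inhba* ratio was 1.17, 1.26 and 1.31. The *Fstl3* to *Inhba* ratio was 0.0241 to 0.0265 at D0 and 0.645 to 0.688 at D5. Both pairs were chosen after the values had been seen and are given without a test. They compare transcripts, and the protein levels of ligand and binding protein were not analysed here.

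Among the receptors, the type II receptors moved in opposite directions and the type I receptor *Acvr1b* changed little. *Acvr2a* (chromosome 2 from 48814109 to 48903269) had 29.9, 33.2 and 30.4 CPM at D0 and 63.7, 64.4 and 63.6 CPM at D5. It rose by a log2 fold change of 1.03, with a standard error of 0.045 and an adjusted p of 3.0e-19 by edgeR, with no overlap between groups. The value was 0.35 in unscaled counts, and 0.47 and no longer past the threshold with spike-in scaling, where the adjusted p was 0.50. Over the 14 alternatives the adjusted p of *Acvr2a* ran from 3.0e-93 to 0.50. Of its exonic length, 7.84% is shared with *Orc4* on the opposite strand, which fell from 2131 to 2379 counts at D0 to 1090 to 1138 counts at D5.

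*Acvr2b*, the other type II receptor and the one through which myostatin is best known to signal, lies on chromosome 9 from 119402118 to 119434995. Its libraries had 5.02, 6.21 and 5.79 CPM at D0 and 2.51, 2.72 and 2.57 CPM at D5. Every D5 library was below every D0 library, and the log2 fold change was -1.13, with a standard error of 0.13 and an adjusted p of 2.0e-09 by edgeR. In TPM *Acvr2a* exceeded *Acvr2b* by 4.12, 3.69 and 3.63 times in the D0 libraries and by 17.5, 16.4 and 17.1 times in the D5 libraries. This was a 4.46-fold change of the ratio, for which the two-sided exact permutation test gave p = 0.1, the smallest it can give.

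*Acvr1b* (chromosome 15 from 101174067 to 101213684) had 12.6, 12.9 and 13.7 CPM at D0 and 14.5, 16.3 and 14.9 CPM at D5. The groups did not overlap, and the log2 fold change was 0.22, with a standard error of 0.067 and an adjusted p of 0.0038 by edgeR, but it was -0.46 in unscaled counts and -0.33 with spike-in scaling. With total counts it was 0.13 and not past the threshold. Over the 14 alternatives its adjusted p ran from 3.0e-07 in unscaled counts to 0.65 with spike-in scaling. In both of these the log2 fold change was negative.

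**Figure D3:**
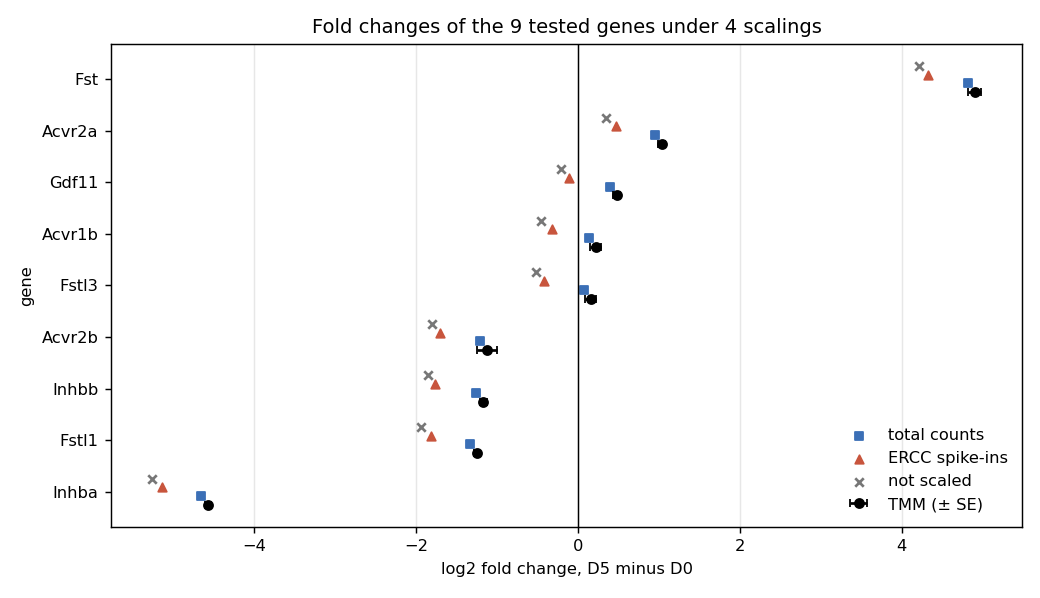
Log2 fold change from D0 to D5 (horizontal axis) of the 9 tested genes under TMM (circles with standard errors), total counts, ERCC spike-in scaling and no scaling. *Fst*, *Acvr2a*, *Acvr2b*, *Inhbb*, *Fstl1* and *Inhba* keep their side of 0, while *Gdf11*, *Acvr1b* and *Fstl3* turn to negative values with spike-in scaling and without scaling.

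Ordered by TPM at D0, the genes ran from *Fstl1* (890 ± 11.1, SD, n = 3) and *Inhba* (764.7 ± 8.09) over *Inhbb* (81.5 ± 1.29), *Gdf11* (70.9 ± 2.46), *Fstl3* (19.3 ± 0.975), *Acvr2a* (19.0 ± 1.18), *Acvr1b* (10.2 ± 0.615) and *Acvr2b* (4.996 ± 0.587) to *Fst* (1.34 ± 0.147). Of these neighbours only *Fstl3* and *Acvr2a* overlapped between libraries. At D5 the order was *Fstl1* (334.5 ± 15.0), *Gdf11* (88.3 ± 5.28), *Fst* (35.7 ± 1.54), *Acvr2a* (34.8 ± 0.584), *Inhbb* (32.4 ± 2.23), *Inhba* (28.7 ± 0.462), *Fstl3* (19.2 ± 0.713), *Acvr1b* (10.7 ± 0.498) and *Acvr2b* (2.05 ± 0.0519). There *Fst*, *Acvr2a* and *Inhbb* overlapped with each other. By its mean *Fst* went from the lowest detected gene to place 3, a place not separated from those of *Acvr2a* and *Inhbb*. *Inhba* went from place 2 to place 6. The spread between replicates was small throughout, with a coefficient of variation of CPM from 0.723% (*Acvr2a* at D5) to 10.6% (*Acvr2b* at D0).

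**Figure D4:**
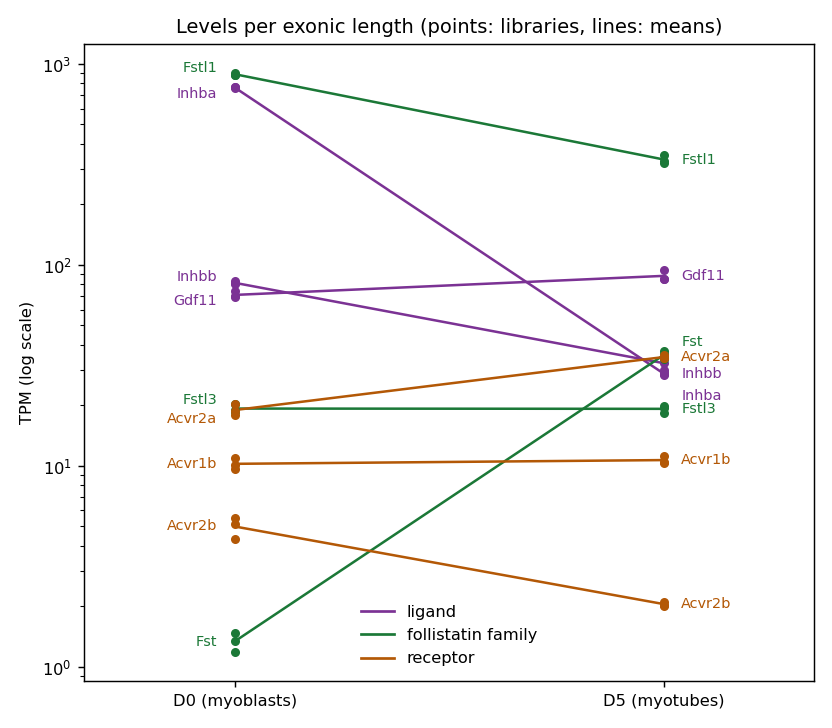
TPM on a log axis of the 9 detected genes in each library (points) at D0 and D5, with lines joining the group means and colours for ligands, the follistatin family and receptors. *Inhba* drops from 764.7 to 28.7 and *Fst* climbs from 1.34 to 35.7, where it lies beside *Acvr2a* and *Inhbb*.

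Of 44 other genes of the pathway, 31 were tested, of which 16 rose and 13 fell in edgeR's test. These are 51.6% and 41.9% of the 31, beside 42.2% and 40.8% of all genes tested, and with 82.9% of all genes called the counts of the small groups below describe their genes and set none of the groups apart. Their median log2 fold change was 0.11, against 0.0022 over all genes tested. Among the called genes named here the adjusted p by edgeR was at most 0.0034 (*Bmpr2*). The other ligand subunits were low. *Inha*, the alpha subunit that pairs with a beta subunit to form inhibin, rose from 1.76 ± 0.174 to 5.01 ± 0.263 CPM (SD, n = 3 per group), with 1.51 on the log2 scale, and *Inhbc* and *Inhbe* had at most 2 counts. Per length, *Inha* transcripts were 0.00495 to 0.00617 of those of *Inhba* at D0 and 0.357 to 0.385 at D5. This pair too was chosen after the values had been seen and is given without a test.

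Of the 9 binding proteins and co-receptors, 4 rose, 0 fell, 1 had no call and 4 were not tested. *Dcn*, whose product decorin is a matrix proteoglycan that can bind myostatin, rose from 12, 13 and 20 counts at D0 to 6636, 5646 and 5812 counts at D5, a log2 fold change of 9.32. *Tcap*, which encodes the sarcomere protein titin-cap, had 1, 2 and 2 counts at D0, under the limit of 3 counts per library. Its D5 level of 28.4 ± 3.27 CPM (SD, n = 3) is at least 377.4-fold higher than that limit. *Tgfbr3* (betaglycan, a co-receptor for inhibin and TGF-beta) had a log2 fold change of 3.77. *Ltbp3*, which encodes a latent TGF-beta binding protein, had 0.83, and the calls of *Ltbp3* and *Inha* were lost with spike-in scaling. *Wfikkn1*, which encodes a myostatin inhibitor, was the tested gene without a call, at 0.698 ± 0.142 CPM in D0 and 0.657 ± 0.0930 CPM in D5 samples (SD, n = 3 per group). Its relative *Wfikkn2* had 2, 3 and 2 counts at D0 and 15, 7 and 7 at D5 and was not tested.

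Of 6 genes for the processing of the precursors, 3 fell, 1 rose and 2 were not tested. *Bmp1*, a metalloprotease that frees myostatin from its propeptide, fell from 384.5 ± 7.85 to 141.0 ± 6.70 CPM (SD, n = 3 per group), a log2 fold change of -1.45. Its relative *Tll1* was much lower and rose from 0.167 ± 0.0286 to 3.52 ± 0.534 CPM (SD, n = 3 per group). The proprotein convertases *Furin* and *Pcsk6* fell, with log2 fold changes of -0.36 and -1.41, the call of *Furin* being lost with spike-in scaling.

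Among 5 other receptors, 3 rose, 1 fell and *Acvr1c*, the receptor ALK7, had at most 1 count. *Tgfbr2*, the type II receptor for TGF-beta, had a log2 fold change of 1.55, and *Tgfbr1*, a type I receptor that also serves myostatin, 0.91. *Acvr1* was at -0.21 and *Bmpr2* at 0.11, and *Bmpr2* turned negative in unscaled counts and with spike-in scaling and lost its call with total counts, with no filter on low counts and without D0 replicate 1. With spike-in scaling none of these 4 kept its call.

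Of 10 Smads and regulators, 4 rose, 5 fell and *Smad4*, the common partner Smad, had no call (99.0 ± 5.68 CPM in D0 and 97.0 ± 0.248 CPM in D5 samples, SD, n = 3 per group). The receptor-activated Smads moved apart after TMM. *Smad2* fell from 95.9 ± 2.62 to 50.2 ± 0.723 CPM, and *Smad3* rose from 85.2 ± 3.03 to 138.5 ± 3.21 CPM (SD, n = 3 per group), with log2 fold changes of -0.94 and 0.70. The call of *Smad3* was lost in unscaled counts and with spike-in scaling. *Smurf1* and *Smurf2*, ubiquitin ligases that act on Smads and receptors, were at -0.98 and -0.72.

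Of 5 response genes, 3 rose and 2 fell. *Ctgf* (*Ccn2*), which encodes a matrix-associated growth factor, fell by 4.94 on the log2 scale, and 23.2% of its exonic length is shared with *Gm15270* on the opposite strand. *Fbxo32*, the other gene that fell, was at -0.17, with an adjusted p of 4.6e-05 by edgeR and the call lost with spike-in scaling. *Cdkn1a*, which encodes the cell cycle inhibitor p21, rose with a log2 fold change of 4.22. For *Trim63*, which encodes the muscle ubiquitin ligase MuRF1, the rise was 8.37. *Pmepa1*, which encodes a membrane protein that restrains TGF-beta signalling, was at 0.54 after TMM but turned negative in unscaled counts and with spike-in scaling. These genes answer to other signals as well. Of the relatives with a follistatin domain, *Sparc* and *Smoc2* had log2 fold changes of -0.21 and -0.40, both calls being lost with spike-in scaling, and the other 4 were not tested.

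**Figure D5:**
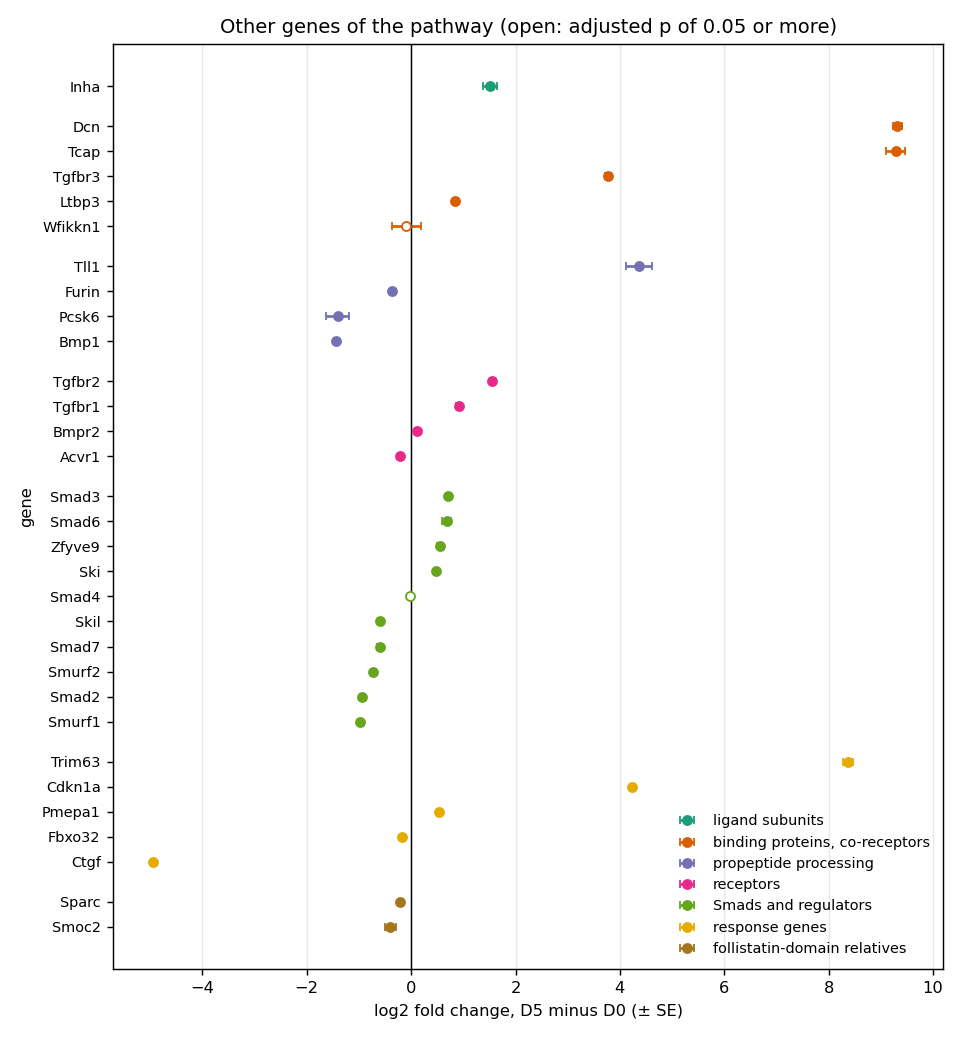
Log2 fold change from D0 to D5 with its standard error (horizontal axis) of the 31 tested genes of the pathway outside the 10, grouped by role and coloured accordingly. Filled points passed the threshold in edgeR's test after TMM, and open points (*Wfikkn1*, *Smad4*) did not. *Bmpr2*, *Zfyve9*, *Ski* and *Pmepa1* lie right of 0 here but turn negative in unscaled counts and with spike-in scaling. *Smad6* was at -0.0031 in unscaled counts (adjusted p of 0.98 by edgeR), which is no clear turn. Unscaled counts include the greater depth of the D0 libraries.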

How the data were processed

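RNA-seq covered 3 samples of C2C12 myoblasts and 3 of C2C12 myotubes. Per the labels, reads were aligned to GRCm38 and counted per gene with featureCounts, and the deposited values are raw counts, 1 library per file. The labels name Tophat2 2.0.0 as aligner and the paper's methods name HISAT2. The annotation release and strand setting are not given in the sources used here. The 92 ERCC rows and a row without a name, which equalled the column total, entered neither library sizes nor tests in the main fit. Only the alternative with spike-in scaling took its library sizes from the ERCC counts.

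From these counts, TMM factors, CPM, log2 fold changes and quasi-likelihood p-values were obtained from edgeR 4.0.16 (R 4.3.3) on genes kept by filterByExpr, with Benjamini-Hochberg adjustment over 16290 genes and a threshold of 0.05. Each standard error was taken as the size of the log2 fold change over the root of its F statistic. TPM used exonic lengths of GENCODE M21 (GRCm38), which held 99.9% of the gene identifiers. Members and gene lists were chosen with earlier results of these data known. The text names all members, up to 4 called genes per list with the largest change and no overlap, and for *Mstn* and *Fst* the 3 genes of most similar pattern, which for the untested *Mstn* could not be found. *Smad4*, *Wfikkn1*, *Wfikkn2*, *Fbxo32* and genes near the limit of detection were added after their values were seen. Alternatives were DESeq2 1.42.0, upper-quartile, total-count, spike-in and no scaling, other filters, a replicate block and leaving out each library. On data simulated from these libraries with only 200 genes changed 2-fold, edgeR's test recovered 87.8% of those among 15981 genes tested. Of its calls there, 6.99% fell on unchanged genes. In the data themselves 82.9% of genes were called, so these shares need not hold for this comparison. A response gene of the list is not reported here and was taken out of its list before the counts were made, with the fit over all genes unaltered. The limit of 3 counts covers counting error only.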

Additional observations from a re-analysis of the deposited data

Results flagged for a closer look

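The ERCC spike-ins, which lie outside the gene counts compared here, took 1.2% of all counts in D5 replicate 1 and 2.09% in D5 replicate 3, above the highest D0 library (0.859%), while D5 replicate 2 had 0.720%. The amount of spike-in added per sample is not given in the sources used here. With 3 libraries per group, no search for outlying libraries was made.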

How the results depend on the processing

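The calls of *Inhba*, *Inhbb*, *Fst*, *Fstl1* and *Acvr2b* held, in direction and past the threshold, in all 14 alternatives. With total counts 3 members were higher. Unscaled counts gave 2 higher and 7 lower members and 10 higher pathway genes, with 76.6% of all calls lower against 49.2% after TMM. Log2 fold changes were then -0.21 for *Gdf11*, -0.53 for *Fstl3* and -0.46 for *Acvr1b*, because the D0 libraries were deeper. Spike-in scaling left 5560 genes called, 67.4% of them lower, with 1 higher member and 6 higher and 6 lower pathway genes. It gave -0.11 for *Gdf11*, -0.43 for *Fstl3* and -0.33 for *Acvr1b*, and the cause was not tested. Leaving out each library gave 13236 to 13599 called genes, 4 to 5 higher and 4 lower members, 15 to 17 higher and 13 lower pathway genes, and log2 differences from -3.45 to -3.35 for *Inhba*/*Inhbb* and from 2.12 to 2.21 for *Acvr2a*/*Acvr2b*. No source used here ties same-numbered D0 and D5 libraries to each other. Their deviations from the group means correlated at 0.027, 0.10 and 0.047, and each library correlated best with its own number, values too small to settle a pairing. A replicate block gave 13558 called genes, 5 higher and 4 lower members. With at most 3 counts in any library, *Mstn* could not be compared.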
